A study of Mus musculus with 2 samples.

Results

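Gata3, Rora, Bcl11b, Il1rl1, Il17rb and Il9r, 3 transcription factors and 3 cytokine receptors of group 2 innate lymphoid cells (ILC2s), were followed in single lymphoid progenitors from adult bone marrow and from fetal liver of the mouse. The 6 genes were taken by symbol from the 27998 gene identifiers that both deposited tables share, and each symbol had 1 identifier. The rule used no measured value, but the members were chosen with earlier results of these data known. The cells were αLPs, progenitors that carry the integrin α4β7, sorted by flow cytometry from wild-type B6 mice as lineage-negative CD45+CD127+Flt3-α4β7+CD25- cells. There was 1 library of adult bone marrow αLPs and 1 library of fetal liver αLPs from stage E14.5, and the number of animals behind each is not stated. The labels state an age of 6 to 8 weeks for both samples, the fetal one included, so the fetal stage was taken from the design text.

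ILC2s are tissue lymphocytes without rearranged antigen receptors that make type 2 cytokines, and they develop from progenitors in fetal liver and adult bone marrow. GATA3 is a zinc finger factor that the lineage needs, RORα (Rora) is a nuclear receptor needed for ILC2 development, and BCL11B is a zinc finger factor that holds ILC2 identity. Il1rl1 encodes ST2, the receptor of the alarmin interleukin 33. Il17rb encodes the chain that, with IL17RA, binds the epithelial cytokine interleukin 25. Il9r encodes the chain that, with the common γ chain, binds interleukin 9, a growth and survival factor of ILC2s. The gate leaves out CD25-positive cells, and mature ILC2s carry CD25.

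After barcodes with under 500 genes or over 10% mitochondrial UMIs were left out, 7258 marrow cells with 29941097 UMIs and 8583 fetal liver cells with 91285900 UMIs remained. A UMI is a count of 1 tagged RNA molecule. The median cell held 3447.5 UMIs in marrow and 9294 in fetal liver, so the share of cells with a UMI was read at an equal depth, after each cell had been thinned at random to 2000 UMIs. This kept 5923 marrow cells and 8452 fetal liver cells. The libraries shared 19 barcodes. Xist, which is made from the inactive X chromosome, stood at 0.0668 counts per 1000000 UMIs (CPM) in marrow and 252 CPM in fetal liver, so the sex of the donors may also differ, and sex, age and organ cannot be told apart. Markers of ILC2 progenitors, a list of 15 genes without the members, summed to 2547 CPM in marrow and 1152 CPM in fetal liver. Markers of some other lineages were lower in marrow: the 8 T lineage markers summed to 16.3 CPM in marrow and 315 CPM in fetal liver, and the 8 erythroid markers to 63.6 CPM in marrow and 254 CPM in fetal liver. Each tissue had 1 library, which allows no test between tissues, and each interval given is a 95% interval for counting error alone.

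The sequences before the start sites of the 3 receptor genes are shown because Il1rl1 differed most between the libraries and Il9r least, and because GATA3 binds sites with a GATA core. The windows are from RefSeq on GRCm38.p6, each from 250 bases before to 50 bases after a start site, written 5′ to 3′ on the strand of the gene. Il1rl1 has windows for 2 start sites, chr1:40429320-40429619 and chr1:40439379-40439678, both on the plus strand. The Il17rb window is chr14:30008847-30009146 and the Il9r window chr11:32200230-32200529, both on the minus strand. Capitals mark matches to the GATA words AGATAA or TGATAA and also AGATAG or TGATAG on either strand.
Il1rl1 first window: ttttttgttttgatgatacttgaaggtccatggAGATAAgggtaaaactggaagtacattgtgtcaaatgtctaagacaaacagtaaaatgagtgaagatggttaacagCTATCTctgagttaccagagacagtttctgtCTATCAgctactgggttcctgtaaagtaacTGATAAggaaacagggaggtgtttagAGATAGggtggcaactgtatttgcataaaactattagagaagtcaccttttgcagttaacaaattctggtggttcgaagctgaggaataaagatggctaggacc
Il1rl1 second window: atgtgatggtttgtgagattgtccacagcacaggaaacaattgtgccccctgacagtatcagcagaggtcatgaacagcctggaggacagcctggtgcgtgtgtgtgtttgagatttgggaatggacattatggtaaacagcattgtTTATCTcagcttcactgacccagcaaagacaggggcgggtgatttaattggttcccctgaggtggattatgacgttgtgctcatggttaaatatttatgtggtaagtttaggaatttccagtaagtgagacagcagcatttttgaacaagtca
Il17rb: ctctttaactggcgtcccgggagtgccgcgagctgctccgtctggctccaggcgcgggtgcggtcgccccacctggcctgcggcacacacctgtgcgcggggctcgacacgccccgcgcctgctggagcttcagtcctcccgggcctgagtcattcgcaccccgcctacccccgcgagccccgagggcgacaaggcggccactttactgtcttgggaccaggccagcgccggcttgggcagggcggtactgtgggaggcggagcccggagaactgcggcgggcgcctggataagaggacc
Il9r: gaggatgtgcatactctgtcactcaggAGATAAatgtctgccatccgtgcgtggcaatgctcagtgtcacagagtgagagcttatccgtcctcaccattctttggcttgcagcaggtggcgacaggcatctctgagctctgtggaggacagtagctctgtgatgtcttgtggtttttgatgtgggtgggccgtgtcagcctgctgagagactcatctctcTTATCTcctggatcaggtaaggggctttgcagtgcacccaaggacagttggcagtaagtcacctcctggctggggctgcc

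The first Il1rl1 window held 5 such matches and the second held 1. Il9r held 2 and Il17rb none. Windows of Gata3 and Rora held 1 match each and that of Bcl11b none, so 5 of the 7 member windows had a match, beside 9778 of all 32851 windows (29.8%). A match is only a run of letters, and binding was not measured. No window was tied to a cell class or library, since these counts do not separate start sites.

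Gata3, Rora, Bcl11b, Il1rl1 and Il17rb were each at least 2-fold higher in marrow, and no member passed 2-fold in the direction of fetal liver on the CPM scale. As background, 6938 genes reached 10 CPM in whichever library was higher, and of these 10.9% passed 2-fold toward marrow and 7.25% toward fetal liver. The median log2 ratio of marrow over fetal liver was 1.64 over the 6 members and -0.01 over all those genes. Il9r stayed under 10 CPM in both libraries and was not among them. Without the clusters that raised markers of other lineages, Gata3 had a log2 ratio of 1.69, Rora 1.16 and Il17rb 1.65. This step was uneven. It took out BM15 in marrow, with 47 cells, and FL7, FL8, FL9 and FL15 in fetal liver, with 420, 711, 186 and 11 cells. FL8 raised 6 lymphoid progenitor markers, but 971 marrow cells named lymphoid progenitor-like stayed in.

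Among the factors, Gata3 (chr2:9857078-9890034, minus strand, mm10) had 12575 UMIs in marrow and 9895 in fetal liver, or 420 CPM and 108 CPM. The log2 ratio of marrow over fetal liver was 1.95, with an interval of 1.92 to 1.99, which placed Gata3 at rank 156 of 6938 from the marrow side. At 2000 UMIs per cell, 52.8% of marrow cells (51.5 to 54.1%) and 17.8% of fetal liver cells (17.0 to 18.6%) had a Gata3 UMI. At least 3 Gata3 UMIs were seen in 9.93% of these marrow cells and 0.816% of these fetal liver cells. Without thinning the shares were 69.2% in marrow and 48.6% in fetal liver.

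Rora (chr9:68653786-69388246, plus strand) reached 628 CPM in marrow and 230 CPM in fetal liver, a log2 ratio of 1.45 (1.42 to 1.48). Its thinned share was 62.1% of marrow cells and 35.2% of fetal liver cells. Before thinning, a Rora UMI was seen in 71.3% of marrow cells and 70.8% of fetal liver cells, so the difference in share appeared only once the depths were equal.

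Bcl11b (chr12:107910403-108003602, minus strand) stood at 149 CPM in marrow and 57.3 CPM in fetal liver, a log2 ratio of 1.38 (1.32 to 1.44), which was 0.50 when the classes found in both libraries weighed the same. Its UMI was found in 21.5% of thinned marrow cells and 8.83% of thinned fetal liver cells. Of the 3 factors it was seen in the fewest cells of both libraries.

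Among the receptors, Il1rl1 (chr1:40429570-40465415, plus strand) had 1320 UMIs in marrow and 591 in fetal liver, that is 44.1 CPM (41.7 to 46.5) and 6.47 CPM (5.96 to 7.02). The ratio was 6.81-fold, a log2 ratio of 2.77 (2.63 to 2.91), at rank 53 from the marrow side. The log2 ratio was 1.67 with at least 1000 genes per cell and 3.60 with each cell weighing the same. An Il1rl1 UMI was present in 6.47% of thinned marrow cells and 1.03% of thinned fetal liver cells.

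Il17rb (chr14:29996135-30008896, minus strand) stood at 34.6 CPM in marrow and 9.66 CPM in fetal liver, a log2 ratio of 1.84 (1.71 to 1.97), which was 1.21 when the shared classes weighed the same. The thinned share was 7.23% in marrow and 1.73% in fetal liver. Its intervals did not overlap between the libraries.

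Il9r (chr11:32187541-32200279, minus strand) had 122 UMIs in marrow and 335 in fetal liver, which came to 4.07 CPM and 3.67 CPM. Its log2 ratio of 0.15 had an interval from -0.16 to 0.45, so a difference in CPM was not detectable at this depth. The ratio was -0.68 with at least 1000 genes per cell and 1.11 with each cell weighing the same. Thinned shares of 0.760% of marrow cells and 0.615% of fetal liver cells had overlapping intervals. All 6 members had a higher thinned share in marrow, beside 49.5% of the 6938 genes, but the direction for Il9r turned when cells were thinned to 3000 UMIs or not thinned.

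**Figure D1:**
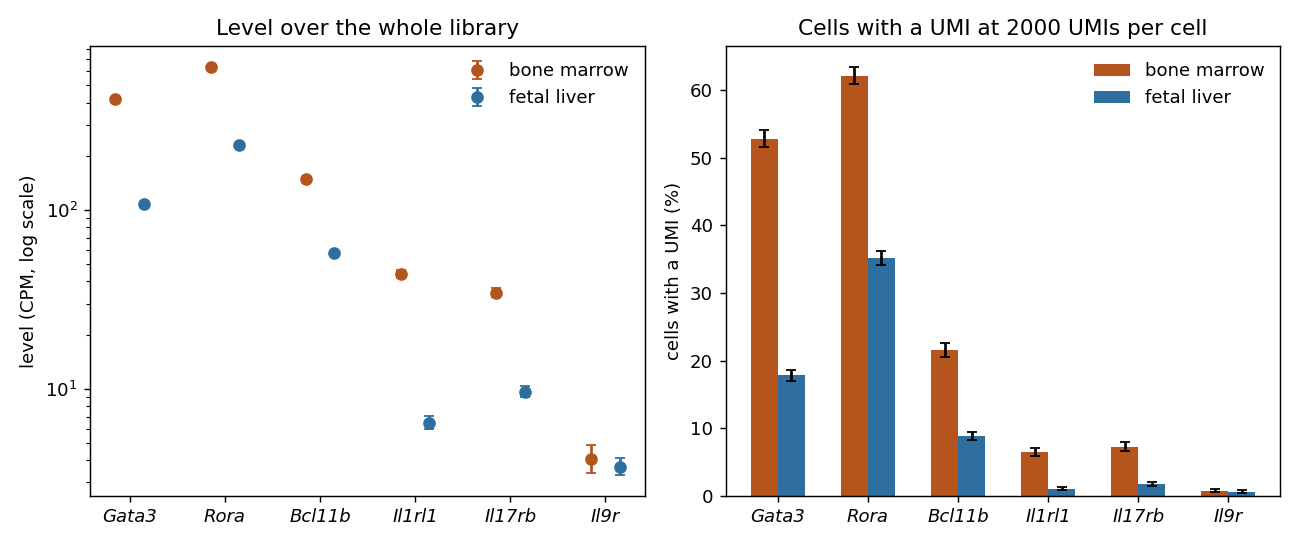
Level of the 6 genes in CPM on a log axis (left) and share of cells with a UMI after thinning to 2000 UMIs per cell (right), bone marrow in orange and fetal liver in blue, 1 library each; bars on the points and columns are exact 95% counting intervals. Every gene but Il9r lies clearly higher in marrow on both scales, as for Gata3 with 420 CPM in marrow and 108 CPM in fetal liver.

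CPM values are relative to the RNA of the cell, and marrow cells held fewer UMIs. Counted per cell without scaling, marrow had 1.73 Gata3 UMIs and fetal liver 1.15, a log2 ratio of 0.59. Rora, with 2.59 UMIs per marrow cell and 2.45 per fetal liver cell, and Bcl11b, with 0.616 and 0.609 in the same order, were nearly equal on this scale. Only Il1rl1 stayed at least 2-fold higher in marrow, with 0.182 UMIs per marrow cell and 0.0689 per fetal liver cell. Il9r passed 2-fold toward fetal liver on this scale, with 0.0168 UMIs per marrow cell and 0.0390 per fetal liver cell, a log2 ratio of -1.22. Why marrow cells held fewer UMIs was not tested. Whether they held less RNA, were captured less well or were sequenced less deeply cannot be told apart.

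Cells were clustered within each library without the 6 genes, and clusters were named from marker lists that hold none of them. ILC2 progenitor-like cells made up 34.3% of marrow cells (clusters BM2, BM8, BM10 and BM14) and 17.1% of fetal liver cells (FL4, FL5 and FL6). Other classes were ILC progenitor-like, NK or ILC1-like (natural killer and group 1 cells), LTi or ILC3-like (lymphoid tissue inducer and group 3 cells) and lymphoid progenitor-like. These names are rebuilt from markers, and the share of a class can be set by the gate. Marrow clusters BM2 and BM8 were shallow, with a median of 1714 and 2057.5 UMIs per cell, against 9895 UMIs in FL4.

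Thinning touched marrow unevenly. It left out 1107 of 2488 ILC2 progenitor-like marrow cells (44.5%) because they had under 2000 UMIs, against 0.272% of those in fetal liver. All the marrow cells left out together held 41.1% of the marrow Il1rl1 UMIs and 34.4% of the Il9r UMIs, so the marrow shares of these receptors at equal depth are measured in the deeper cells. At 1000 UMIs, which kept 7239 marrow cells and 8563 fetal liver cells, Il1rl1 was seen in 6.66% of marrow cells and 0.455% of fetal liver cells.

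B lineage-like cells served as the check for free RNA, since they should lack these genes. In this fetal liver cluster of 186 cells, whose median of 9421 UMIs was close to the library's 9294, 183 cells could be thinned. None of them had a Gata3 UMI, which allows a share of up to 1.64%, and 1.09% had a Rora UMI and 1.09% a Bcl11b UMI. Il1rl1, Il17rb and Il9r were each seen in 0.546% of these cells, with intervals of 0.0138 to 3.01%. The fetal liver shares of Il1rl1, Il17rb and Il9r over all cells lie inside that interval, so the thinned shares do not separate them from background. Those of the 3 factors lie above theirs. In single fetal clusters Il17rb, in 5.95% of thinned FL5 cells, and Il1rl1, in 4.81% of thinned FL4 cells, had shares above that interval. The Il9r share of 2.05% in FL5 lay inside it. Before thinning, the B lineage-like cells had 0.518 CPM of Il1rl1 (0.0131 to 2.88) and 1.04 CPM of Il17rb (0.125 to 3.74). The fetal liver library levels of 6.47 CPM for Il1rl1 and 9.66 CPM for Il17rb lay above these intervals. For Il9r the library level of 3.67 CPM lay inside the B lineage-like interval of 0.564 to 5.30 CPM. Marrow had no B lineage-like cluster, and its 20 cells with at least 3 B lineage UMIs carried Gata3 in 45.0% after thinning, so they were no measure of background.

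Levels by cluster are compared among clusters of at least 100 cells, 14 in each library. Gata3 was highest in ILC2 progenitor-like clusters of both libraries. In marrow BM8 stood at 786 CPM, above the unnamed BM3 at 698 CPM, and in fetal liver FL4 at 268 CPM lay above FL5 at 221 CPM; neither pair of intervals overlapped. The lowest levels were 98.6 CPM in lymphoid progenitor-like BM13 and 9.63 CPM in FL7, a fetal cluster with mast cell, erythroid and myeloid markers.

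Rora followed another order. It was highest in BM3 at 1279 CPM and ILC progenitor-like BM5 at 1095 CPM in marrow, and in fetal liver in FL11 at 413 CPM and FL4 at 392 CPM, whose intervals overlapped. FL11 raised 7 ILC progenitor markers, but the T lineage genes Cd3d and Cd3g were among its leading genes, so it was left unnamed.

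Bcl11b in marrow peaked in BM3 at 441 CPM and lymphoid progenitor-like BM12 at 432 CPM, with overlapping intervals, and these clusters held 30.7% and 11.5% of the marrow Bcl11b UMIs. BM3 was led by Ccl5, Sh2d1a and Bcl11b and carried markers of several classes. In fetal liver FL4 had 139 CPM and FL5 132 CPM. FL8, led by the neutrophil granule genes S100a8 and S100a9, held 21.7% of the fetal liver Bcl11b UMIs.

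Il1rl1 was concentrated in ILC2 progenitor-like marrow cells, with 265 CPM in BM2 and 222 CPM in BM8, and BM8 alone held 54.6% of its marrow UMIs. BM3, high in all 3 factors, had 4.81 CPM of Il1rl1 from 15 UMIs. The same BM3 cells had 75.8 CPM of Il17rb, 22.8% of all marrow Il17rb UMIs, against 94.6 CPM in BM8 and 82.5 CPM in BM2. BM3 thus had Il17rb at a level near that of the ILC2 progenitor-like clusters with little Il1rl1.

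In fetal liver Il1rl1 reached 24.8 CPM in FL4 and 19.4 CPM in FL7, with overlapping intervals. FL7 held 27.6% of the fetal liver Il1rl1 UMIs. Mast cells also carry ST2, and mast or basophil markers summed to 219 CPM over the marrow library, with Mcpt4 and Tpsb2 at 0, and to 226 CPM over the fetal liver library, with none of the 10 markers at 0. These sums do not count mast-like cells, since in lymphoid progenitor-like BM12 the sum was 844 CPM with only Cpa3 at 10 CPM or more. In marrow the unnamed BM15, with 47 cells, raised 7 of the markers, and in fetal liver FL7, with 420 cells, raised 8. Without the clusters that raised markers of other lineages, the log2 ratio of Il1rl1 was 2.93. Il17rb in fetal liver was highest in ILC2 progenitor-like cells, which held 52.4% of its UMIs, with 29.8 CPM in FL5, 23.8 CPM in FL4 and 21.1 CPM in FL6, and 1.31 CPM in FL7.

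Among clusters of at least 100 cells Il9r was also highest in these, with 19.7 CPM in BM2 and 18.8 CPM in BM8, and with 9.84 CPM in FL5 and 7.59 CPM in FL4. In marrow cluster BM12 no Il9r UMI was found. The intervals of the highest pair overlapped in both libraries.

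**Figure D2:**
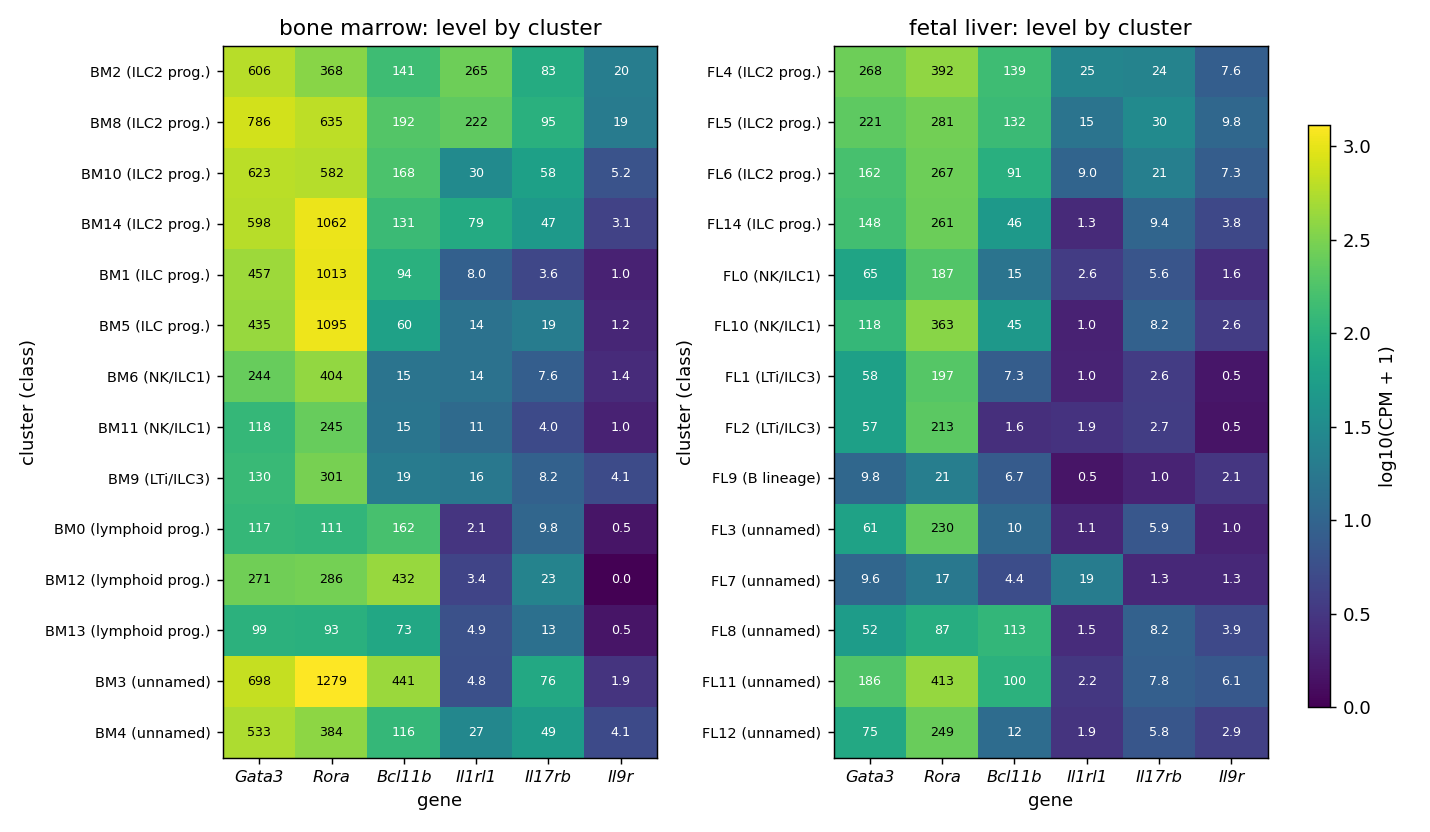
Level of each gene (columns) in each cluster of at least 100 cells (rows, grouped by class), bone marrow left and fetal liver right; numbers are CPM and colour is log10(CPM + 1). Il1rl1 reaches 265 CPM in BM2 and 222 CPM in BM8 but 4.81 CPM in BM3, where Gata3, Rora and Bcl11b are high.

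Within classes of the same name the tissue difference in CPM was uneven. These classes were not matched in make-up. FL5, with Ube2c and Spc25 among its leading genes, counted as ILC2 progenitor-like. BM4, led by Ube2c and Birc5, raised 3 ILC2 progenitor markers and was left unnamed. In ILC2 progenitor-like cells Il1rl1 stood at 162 CPM in marrow and 17.5 CPM in fetal liver, a log2 ratio of 3.21 (3.02 to 3.39). Gata3 had a log2 ratio of 1.61 there, Il17rb 1.60, Rora 0.94, Il9r 0.69 and Bcl11b 0.44. So Bcl11b and Rora, which passed 2-fold over whole libraries, were under 2-fold within these cells.

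In CPM, Gata3 and Il1rl1 were higher in marrow in each of the 4 classes found in both libraries. Per cell without scaling, Gata3 was lower in marrow in ILC2 progenitor-like, ILC progenitor-like and NK or ILC1-like cells. It was nearly equal in LTi or ILC3-like cells. ILC2 progenitor-like cells held 4767 Gata3 UMIs in 2488 marrow cells and 4086 in 1470 fetal liver cells. For Gata3 the log2 ratio of CPM ranged from 1.03 in NK or ILC1-like cells to 1.61 in ILC2 progenitor-like cells. For Il1rl1 it ranged from 2.60 in NK or ILC1-like cells to 3.25 in LTi or ILC3-like cells, where it rested on 8 marrow UMIs and 18 fetal liver UMIs. In ILC progenitor-like cells it rested on 81 marrow UMIs and 5 fetal liver UMIs. Marrow Il1rl1 stood at 10.7 CPM in ILC progenitor-like, 12.3 CPM in NK or ILC1-like and 16.5 CPM in LTi or ILC3-like cells. Marrow had no usable check for free RNA, so its part in these levels was not tested. Bcl11b in NK or ILC1-like cells was lower in marrow, at -0.77, but the 2 fetal liver clusters of this class differed. FL10 had 45.2 CPM and 315 of the 514 fetal liver UMIs. FL0 had an interval of 12.99 to 17.24 CPM, and BM6 at 14.6 CPM and BM11 at 15.1 CPM lay inside it. FL10 also raised Zbtb16, Tox2, Cd3d and Cd3g. FL3, which raised 7 NK or ILC1 markers but was unnamed, had 10.5 CPM.

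The ILC progenitor-like class of fetal liver was FL14 alone, with 196 cells. Against it marrow Rora had a log2 ratio of 2.01, Gata3 1.59 and Bcl11b 0.79. At equal depth Bcl11b was seen in 10.8% of these marrow cells and 11.3% of these fetal liver cells, so its difference in CPM did not show in the share. With FL11 counted in, an alternative chosen after seeing the data, Bcl11b had a log2 ratio of -0.10 and Gata3 of 1.35, so the direction of Bcl11b in this class depends on where FL11 is placed. LTi or ILC3-like marrow cells were the single cluster BM9, led by MHC class II genes. FL12, also led by such genes, raised 6 LTi or ILC3 markers but was unnamed, so the fetal liver class leaves it out.

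**Figure D3:**
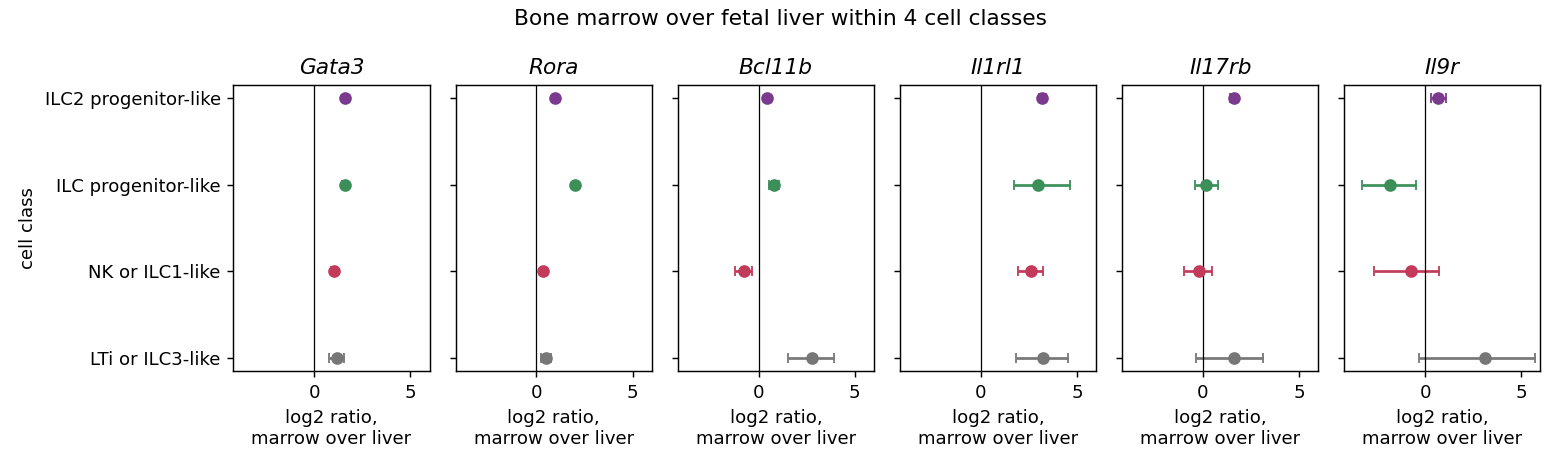
log2 ratio of CPM, bone marrow over fetal liver, for each gene (panels) in the 4 shared classes (rows), with exact 95% counting intervals. A value of 0 marks equal levels. Il1rl1 lies right of 0 in all 4 classes, with only 5 fetal liver UMIs in ILC progenitor-like cells. Bcl11b ranges from -0.77 in NK or ILC1-like cells to 2.78 in LTi or ILC3-like cells.

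The genes were often seen together in marrow. After thinning, 50.4% of marrow cells and 13.7% of fetal liver cells had UMIs of 2 or more of the 6 genes, and 16.4% and 2.04%, in the same order, had 3 or more. None of the 6 was seen in 18.7% of marrow cells and 50.7% of fetal liver cells. No cell of either library had all 6.

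These shares differed between classes. UMIs of 2 or more genes were found in 72.0% of marrow and 34.7% of fetal liver ILC2 progenitor-like cells, and in 16.4% of marrow and 9.38% of fetal liver NK or ILC1-like cells. In the unnamed marrow cells, mostly BM3, it was 72.6%, and in ILC progenitor-like marrow cells 53.7%. In lymphoid progenitor-like marrow cells the share was 18.9%. Among 183 fetal liver B lineage-like cells it was 0, which allows up to 1.64%.

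Gata3, Rora and Bcl11b were all seen in 10.3% of marrow cells and 1.49% of fetal liver cells. Il1rl1 or Il17rb was seen in 12.7% of marrow cells and 2.71% of fetal liver cells. Both receptors together were found in 59 marrow cells and 4 fetal liver cells. Of the cells with either receptor, 73 in marrow and 89 in fetal liver had no UMI of any of the 3 factors.

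**Figure D4:**
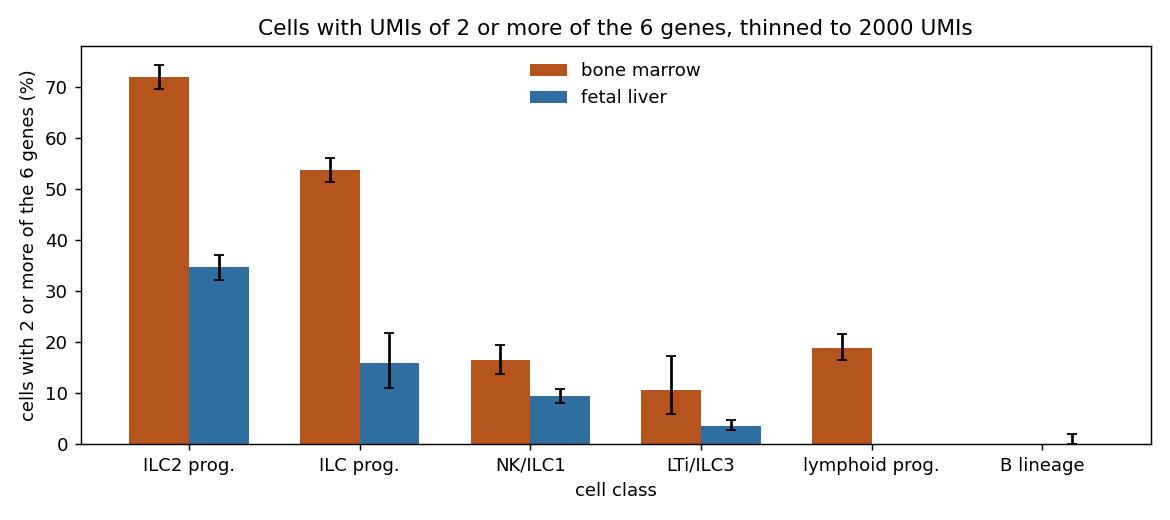
Share of cells with UMIs of 2 or more of the 6 genes after thinning to 2000 UMIs, by class, bone marrow in orange and fetal liver in blue, with exact 95% intervals; lymphoid progenitor-like cells were named only in marrow and B lineage-like cells only in fetal liver. The share reaches 72.0% in marrow and 34.7% in fetal liver ILC2 progenitor-like cells.

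Of the 15 pairs of genes, 8 in marrow and 5 in fetal liver were seen together more often. In these, the second gene was seen in a higher share of cells with the first gene than of cells without it. The intervals of the shares did not overlap. No pair went the other way. Pairs of other genes were not counted, so these numbers have no background share beside them. In marrow 71.9% of cells with Gata3 and 51.3% of cells without it had Rora. In fetal liver the shares were 46.4% with Gata3 and 32.8% without. Il17rb was seen in 15.4% of marrow cells with Il1rl1 and 6.66% of those without.

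Il1rl1 and Rora were not more often together in either library. A Rora-positive marrow cell had Il1rl1 in 6.68% of cases and a Rora-negative one in 6.11%. Over cells, Pearson's r of the pairs lay between -0.02 and 0.21 in marrow and between -0.01 and 0.13 in fetal liver, which is weak in counts this sparse. The number of cells with both genes, divided by the number expected from their separate shares, had a median over the pairs of 1.26 in marrow and 1.36 in fetal liver. Computed within clusters it was 1.03 in marrow and 1.04 in fetal liver. The pairs seen together more often differed here between the libraries. Within clusters the 8 marrow pairs lay between 1.00 and 1.05. The 5 fetal liver pairs lay between 1.10 for Gata3 with Rora and 1.38 for Gata3 with Il17rb.

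Shares of the other genes were also read by the number of Gata3 UMIs. In marrow Bcl11b was seen in 16.5%, 23.2%, 25.5% and 34.9% of cells with 0, 1, 2 and 3 or more Gata3 UMIs. In fetal liver the shares were 7.33%, 14.0%, 22.4% and 26.1%. Il1rl1 in marrow went 3.83%, 7.47%, 10.5% and 10.4% over the same steps. Fetal liver Il17rb was seen in 1.35%, 3.21%, 5.48% and 1.45% of cells. In fetal liver the highest step held 69 cells, and the intervals of the receptors there overlapped those of the cells without Gata3.

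**Figure D5:**
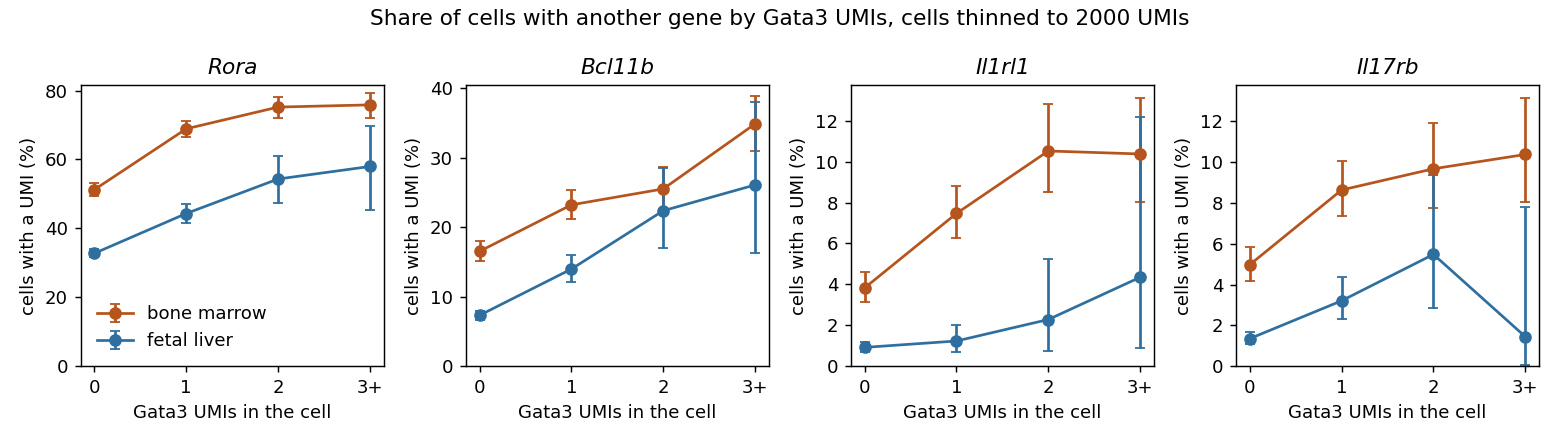
Share of thinned cells with Rora, Bcl11b, Il1rl1 or Il17rb (panels) by the number of Gata3 UMIs in the cell, bone marrow in orange and fetal liver in blue, with exact 95% intervals. In marrow the share with Bcl11b is 16.5% without Gata3 and 34.9% at 3 or more UMIs, and the fetal liver points at 3 or more rest on 69 cells.

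Genes whose counts over cells were most like each member were named where Pearson's r was at least 0.2. In marrow Rora was most like Lmo4, a LIM domain cofactor, at 0.47, then Malat1 at 0.32 and Txk at 0.30. Gata3 was most like Lmo4 at 0.26, Id2 at 0.22 and the immediate early genes Fos and Dusp1 at 0.21 each. Il1rl1 was most like Ly6a and Nfkbia at 0.28 each and Zfp36 at 0.27, where Nfkbia encodes an NF-κB inhibitor and Zfp36 a factor of mRNA decay. Bcl11b, Il17rb and Il9r had no such gene, and in fetal liver the only pair at this value was Rora with Lmo4 at 0.21.

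Partner factors of the ILC lineage were set beside the members. Of 18 listed, 15 had at least 10 CPM, and 6 passed 2-fold toward marrow and 0 toward fetal liver; the median log2 ratio was 0.97. The count toward marrow was 3 with median-ratio factors, without clusters of other lineages, and in shared classes only. Lmo4 had 1681 CPM in marrow and 561 CPM in fetal liver, a log2 ratio of 1.58. Ets1, Tox and Tox2, which act in early ILC development, had log2 ratios of 1.46, 1.26 and 1.16.

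Receptor partner chains and signalling genes passed 2-fold toward marrow in 7 of 15 cases, around a median of 0.88. Stat5b, Jak2 and Nfkb1, which carry cytokine and alarmin signals, had log2 ratios of 1.54, 1.52 and 1.45. Il1rap, the partner chain of ST2, stayed under 10 CPM, with 2.20 CPM in marrow and 1.10 CPM in fetal liver. Of the 4 ligand genes listed, Il33, Il25, Il9 and Tslp, 0 reached 10 CPM.

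Other ILC2 surface molecules passed 2-fold toward marrow in 5 of 12 cases and toward fetal liver in 1, around a median of 0.76. Cysltr1, a leukotriene receptor, had a log2 ratio of 1.96, Il18r1 of 1.75 and Tnfrsf18 of 1.67. Tnfrsf25, the receptor of TL1A, was higher in fetal liver, with 11.0 CPM in marrow and 52.7 CPM in fetal liver.

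Type 2 effector genes split. Of 12 listed, 7 reached 10 CPM, 2 passed 2-fold in each direction, and the median was -0.24. The sign of this median depended on the setting, at 0.50 with each cell weighing the same and 2.35 with a minimum of 50 CPM. Areg, which encodes amphiregulin, had 160 CPM in marrow and 11.0 CPM in fetal liver, and Calca 62.5 CPM and 12.3 CPM in the same order. Il13 ran the other way, with 3.94 CPM in marrow and 19.2 CPM in fetal liver, and so did Arg1, with 80.1 CPM in marrow and 249.7 CPM in fetal liver.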

How the data were processed

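Single-cell libraries of αLPs from adult bone marrow and fetal liver were read as deposited by the authors, as raw UMI counts per gene and barcode. Per the labels' protocols they came from a 10x Chromium kit, UMIs were counted, and barcodes not tied to a cell were removed. Software version 3.0.1 made the matrices, per the file headers. The submitters' processing notes name mm10 and Seurat 4.0, but give them no role; no aligner is stated. The deposited gene and barcode lists hold no measurement (other).

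Of the barcodes, 109 of 7367 in marrow and 363 of 8946 in fetal liver were left out. Counts were summed per library and divided by the total to give CPM. Ratios have exact conditional intervals, levels exact Poisson intervals and shares exact Clopper-Pearson intervals, all at 95%. They cover counting error only, and a limit for a count of 0 uses 3 counts, which were 0.100 CPM in marrow and 0.0329 CPM in fetal liver. The interval method was tested on simulated data.

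Clustering used scanpy 1.11.5 with 2000 variable genes, 30 components, 15 neighbours and Leiden resolution 1.0. A cluster was named when it had at least 30 cells and 4 raised markers, clearly led the next class and had no more markers of another class among its 10 leading genes. This rule was set after the clusters were seen, and its last condition was added after the first values by class had been computed. Scrublet marked 3 marrow and 5 fetal liver cells, too few to have worked, so doublets remained. TMM factors came from edgeR 4.0.16.

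The members and gene lists were chosen with earlier results of these data known. The named genes were all members, the 4 largest absolute log2 ratios per list among genes with at least 10 CPM, and the 5 most similar genes with r of at least 0.2. Some genes taken by this rule are not reported here. Other genes, such as Il1rap, Xist and the leading genes of clusters, were named after their values were seen. Alternatives covered scaling, cell filters, doublets, cell classes, thinning depth and cluster resolution.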

Additional observations from a re-analysis of the deposited data

Results flagged for a closer look

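Bcl11b differed in direction between classes: the log2 ratio of bone marrow over fetal liver was 0.44 in ILC2 progenitor-like cells, 0.79 in ILC progenitor-like cells and 2.78 in LTi or ILC3-like cells, but -0.77 in NK or ILC1-like cells. At equal depth the Bcl11b share in ILC progenitor-like cells was 10.8% in marrow and 11.3% in fetal liver. The value in LTi or ILC3-like cells rests on 9 marrow UMIs and 28 fetal liver UMIs. In NK or ILC1-like cells FL10 held 315 of the 514 fetal liver UMIs, and the level of FL0 was near those of BM6 and BM11. The difference between classes was not tested.

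Il9r was higher in marrow in ILC2 progenitor-like cells, with a log2 ratio of 0.69, and lower in marrow in ILC progenitor-like cells, at -1.83. The second value rests on 8 marrow UMIs and 14 fetal liver UMIs, and it was -2.37 with FL11 counted in. This difference was not tested either.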

How the results depend on the processing

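No paired analysis was possible because each tissue had 1 library. The log2 ratio of a member was recomputed 66 times, and 27 values stayed inside the counting interval and 39 moved. None of the 5 members past 2-fold changed direction, but Il9r turned to -0.68 with at least 1000 genes per cell, -0.01 with median-ratio factors and -1.22 in UMIs per cell. Without the 2 alternatives chosen after seeing the data, the ranges were 1.48 to 2.20 for Gata3, 1.13 to 1.46 for Rora, 0.50 to 1.48 for Bcl11b, 1.67 to 3.60 for Il1rl1, 1.21 to 2.21 for Il17rb and -0.68 to 1.11 for Il9r. The lowest Il1rl1 value came from requiring at least 1000 genes per cell. The number of members at least 2-fold higher in marrow was 4 when the shared classes weighed the same. It was 3 when FL11 was also named ILC progenitor-like and 1 in UMIs per cell without scaling, both chosen after seeing the data. Partner factors at least 2-fold higher in marrow numbered 3 with median-ratio factors, 3 without clusters of other lineages and 3 in shared classes only. The median over all genes shifted by -0.18 with median-ratio factors and by -0.15 with TMM factors. The Il9r share difference reversed to -0.16 points at 3000 UMIs and -1.91 points without thinning. Fetal liver pairs seen together numbered 3 at 1000 UMIs. Of 44 recomputed list medians 42 stayed within 1.5-fold and 2 moved, and of 12 highest cluster levels 8 stayed inside their interval and 4 moved. Of 36 share differences 18 stayed, 16 moved and 2, those of Il9r, reversed. The causes were not tested. With 1 library per tissue, nothing here measures the spread between animals, and the low counts of Il9r limit its comparison.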

Other observations

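Il1rl1 lies on chromosome 1 in a row of 6 protein-coding receptor genes, Il1r2, Il1r1, Il1rl2, Il1rl1, Il18r1 and Il18rap in that order on the plus strand. These neighbours were looked up after the members' values were known. The log2 ratio of marrow over fetal liver was 1.75 for Il18r1, which starts next to the end of Il1rl1, and 2.77 for Il1rl1. Il18rap, with 9.92 CPM in marrow and 17.8 CPM in fetal liver, had a log2 ratio of -0.84, Il1r1 of -0.86 and Il1r2 of -0.34. Il1rl2 had 1.64 CPM in marrow and 1.12 CPM in fetal liver.

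Il2ra, which encodes the CD25 that the gate excluded, had 7.78 CPM in marrow and 1.08 CPM in fetal liver.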
